A study of Homo sapiens with 24 samples.

Results

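The genes described here are 56 nuclear genes that encode subunits of the mitochondrial respiratory chain, given as a list of symbols and found in the deposited tables among 27431 gene symbols. They comprise 23 genes of complex I, 4 of complex II, 7 of complex III, 11 of complex IV and 11 of complex V. NDUFA4, which carries a complex I name but whose protein is now placed in cytochrome c oxidase, was counted with complex IV. The study measured messenger RNA by sequencing in human breast carcinoma lines with HER2 amplification in which TFAP2C, which encodes the transcription factor AP-2gamma, had been knocked down. In SKBR3, HCC1954 and HCC1569 a transient siRNA against TFAP2C was set against a non-targeting siRNA, with harvest after 72 to 96 h. In HCC1954 a lentiviral shRNA against TFAP2C in stable cell clones was set against a negative control shRNA, and the labels do not say how many clones were used. Each of the 8 groups had 3 samples (24 in all) at passage 5 to 10, and the submitters' purpose was to identify AP-2gamma targets behind growth and invasiveness.

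The respiratory chain sits in the inner mitochondrial membrane. Complex I takes electrons from NADH and complex II from succinate, complex III passes them from ubiquinol to cytochrome c, complex IV hands them to oxygen, and complex V, the ATP synthase, uses the proton gradient that complexes I, III and IV build. Complexes I, III, IV and V combine subunits encoded in the nucleus with a few encoded in mitochondrial DNA, whereas complex II is encoded in the nucleus alone. The nuclear subunit genes are scattered over many chromosomes, and the factors NRF1, GABP (an ETS family factor) and YY1 are known regulators of many of them.

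A level below is the FPKM (fragments per kilobase of transcript, scaled to the library's mapped fragments) that the authors pooled over the 3 samples of a group, summed over all RefSeq transcripts of a gene, and a log2 ratio is that of knockdown over control. No value of a single sample was used, so the spread between replicates, the depth of each sample and any overlap of the groups are unknown. A gene is said to have risen or fallen only where the q-value (p adjusted for the false discovery rate) of the authors' deposited table was under 0.05 for its most abundant tested transcript. The labels do not state whether the replicates of a group are separate cultures, so these tests measure the spread between samples, which may be technical. Each comparison had its own controls and was normalised on its own.

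TFAP2C fell in all 3 genome-wide comparisons, from 157 to 53.9 FPKM in SKBR3, from 92.4 to 21.98 FPKM with siRNA in HCC1954 and from 81.0 to 3.46 FPKM with shRNA. Of 7 markers of HER2-positive breast epithelium, 6 were at 1 FPKM or more in SKBR3 and 7 in HCC1954, and their summed level lay between 1956 and 9306 FPKM; the exception was CDH1 in SKBR3. The summed levels of 5 fibroblast markers (0.340 to 1.96 FPKM) and 3 leukocyte markers (0.0863 to 2.19 FPKM) were near 0, with LUM at 0 in every group, and 3 endothelial markers summed to 0.142 to 27.5 FPKM, with PECAM1 nearly all of the sum in the HCC1954 siRNA groups and the shRNA control. The shRNA groups of HCC1954 also differed in lineage markers: ERBB2 fell from 1525 to 20.8 FPKM and CDH1 from 149 to 20.7 FPKM, PECAM1 fell from 11.6 to 0.0180 FPKM, and KRT19 rose from 19.9 to 634 FPKM. The part of these differences in the respiratory chain results with shRNA was not tested, and differences between clones cannot be told apart from the knockdown. Whether the shRNA knockdown cells are the same line as their controls was not tested, and the labels say that the lines were not authenticated, so every shRNA value below compares the groups as labelled.

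In SKBR3 the respiratory chain genes were lower after knockdown. Of 55 members tested, 44 fell and 0 rose, where 20.7% of all genes tested fell and 12.5% rose. At an unadjusted p under 0.05 in the authors' deposited table (Cuffdiff), 0 members were higher and 48 lower, where 16.5% of all genes tested were higher and 27.3% lower. The median log2 ratio of the members was -0.53, with quartiles of -0.64 and -0.39, against -0.09 over all genes tested. The FPKM of the 56 genes together went from 8151 to 5562, which is 31.8% lower. As a share of the summed FPKM of the group, that is 1.83% in control and 1.36% in knockdown cells. Most changes were small and alike in size, and 22 of the 44 falls were at least 1.5-fold (10.3% of all genes tested fell that far).

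With the same siRNA in HCC1954, none of the 56 genes was called. In that comparison 2.27% of all genes tested rose and 0.948% fell, so few calls were made anywhere. By the authors' Cuffdiff test 2 members were higher and 6 lower at an unadjusted p under 0.05, where 7.75% and 5.31% of all genes tested were, and the smallest q of the authors' deposited table was 0.061, for NDUFS7. The median log2 ratio was -0.09 against -0.01 over all genes, with 44 of 56 members below 0. The summed level was 6475 FPKM in control and 6210 FPKM in knockdown cells (1.17% and 1.14% of the summed FPKM of the group).

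With shRNA in HCC1954 most members were higher. Of 56 members, 39 rose and 7 fell, where 36.4% of all genes tested rose and 39.1% fell. The median log2 ratio was 0.44 against -0.03 over all genes. The summed level went from 4583 to 5936 FPKM (1.05% and 1.47% of the summed FPKM of the group). Changes were less alike than in SKBR3, since the quartiles were 0.14 and 0.80. The range ran from -2.37 for NDUFS6 to 1.65 for ATP5ME, nearly all of whose level there came from a non-coding transcript. Of the rises 22 were at least 1.5-fold (25.8% of all genes tested rose that far), and of the falls 4 (28.8%).

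**Figure D1:**
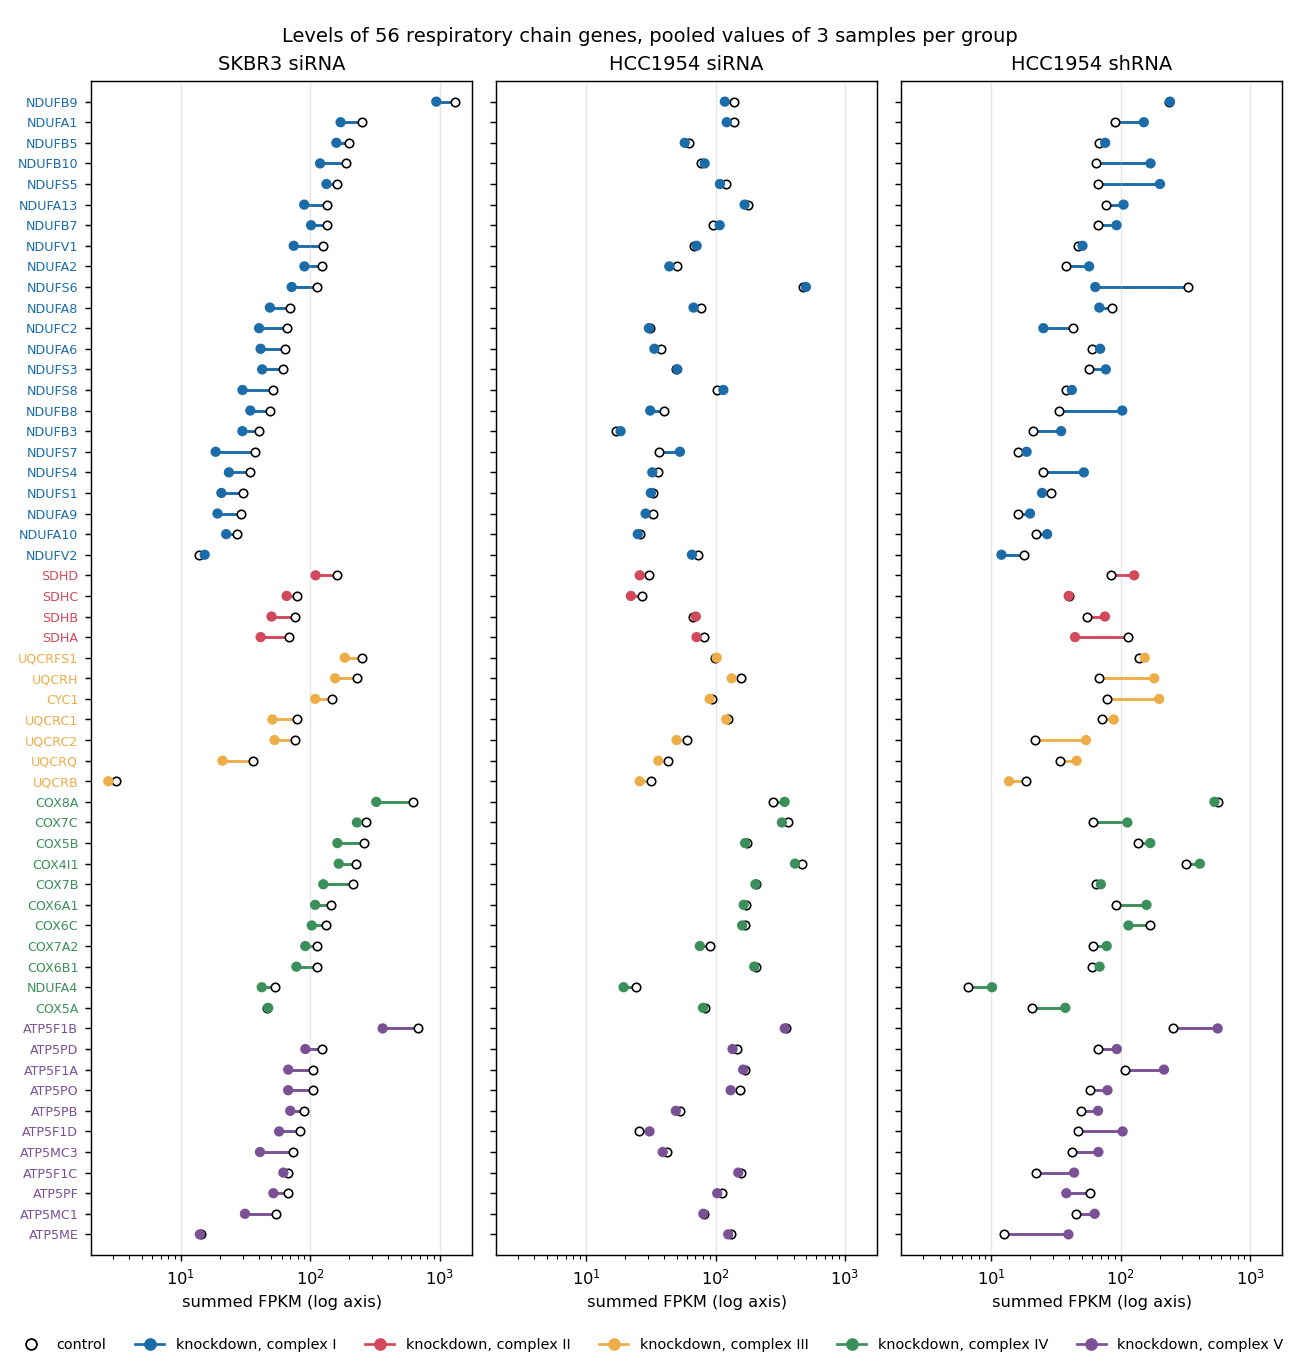
Level of each of the 56 genes in control (open circles) and TFAP2C knockdown cells (filled circles, coloured by complex), as pooled FPKM summed over transcripts on a log axis, 1 value per group with no error bar because values of single samples were not used. Nearly all filled circles lie left of the open ones in SKBR3, close to them with siRNA in HCC1954, and mostly to the right with shRNA, with NDUFS6 (329 to 63.7 FPKM) and SDHA (114 to 44.4 FPKM) among the exceptions.

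The 5 complexes moved by similar amounts in SKBR3 and by unequal amounts with shRNA. In SKBR3, 18 of 23 genes of complex I fell, 3 of 4 of complex II, 6 of 6 tested of complex III, 9 of 11 of complex IV and 8 of 11 of complex V. The median log2 ratios were -0.55, -0.58, -0.55, -0.40 and -0.54 in the same order. With shRNA, 13 genes of complex I rose and 4 fell, 2 of complex II rose and 1 fell, 6 of complex III rose and 1 fell, 8 of complex IV rose and 1 fell, and 10 of complex V rose and 0 fell. The medians were 0.29, 0.23, 0.43, 0.34 and 0.67. As summed FPKM, complex V was 1.80 times and complex III 1.71 times its control level with shRNA, against 1.15 for complex I, 1.13 for complex IV and 0.981 for complex II. With siRNA in HCC1954 the medians were -0.10, -0.22, -0.24, -0.06 and -0.08, and that of complex I turned to 0.034 with the called transcript alone. These differences between complexes are descriptions, and no test of complex against complex was made.

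**Figure D2:**
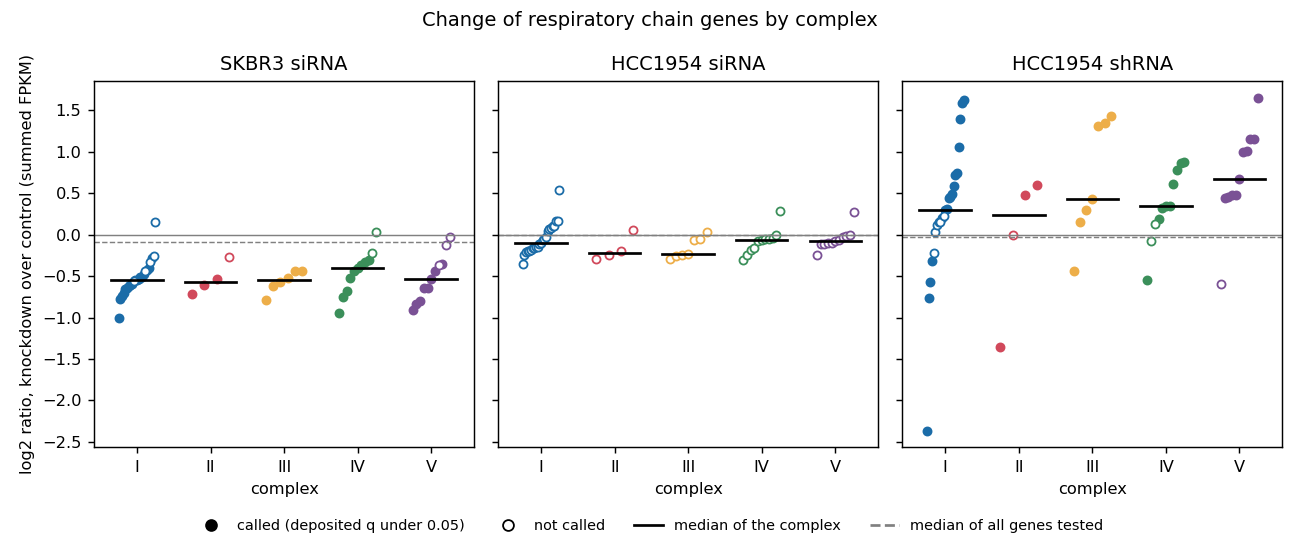
Log2 ratio of knockdown over control (summed FPKM) for each tested gene, sorted within its complex, in the 3 comparisons; filled points were called at a deposited q under 0.05, black bars are medians of a complex and the dashed line is the median of all genes tested. Every complex has its median between -0.58 and -0.40 in SKBR3 and between 0.23 and 0.67 with shRNA.

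Complex I draws electrons from NADH through a core that carries flavin and iron-sulphur clusters. In SKBR3, 4 of the 6 core genes fell. NDUFS7, an iron-sulphur subunit next to the quinone site (chromosome 19, 1383526 to 1395588 on the plus strand, GRCh37), went from 37.2 to 18.6 FPKM in SKBR3, from 36.7 to 53.1 FPKM with siRNA in HCC1954 and from 16.1 to 18.8 FPKM with shRNA. Its log2 ratio of -1.005 was the lowest of the 55 members tested in SKBR3, and only the SKBR3 change was called. NDUFV1, which binds NADH and the flavin, fell from 125 to 74.3 FPKM and NDUFS8 from 51.3 to 29.9 FPKM in SKBR3, and neither was called in HCC1954. NDUFS3, the fourth core gene that fell in SKBR3 (61.3 to 42.4 FPKM), was the 1 core gene that rose with shRNA, from 56.5 to 76.9 FPKM. NDUFV2, an iron-sulphur subunit, fell with shRNA from 17.9 to 12.01 FPKM and was listed at 13.8 and 15.3 FPKM in SKBR3. NDUFS1, the largest core subunit, was called nowhere.

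Of the 23 genes of complex I, 17 are accessory, and their products surround the core. In SKBR3, 14 of the 17 accessory genes fell, beside 4 of the 6 core genes and 20.7% of all genes tested. With shRNA 12 accessory genes rose and 3 fell, and 1 core gene rose and 1 fell, where 36.4% of all genes tested rose and 39.1% fell. NDUFB8 (chromosome 10, 102283497 to 102289757 on the minus strand, GRCh37) went from 49.0 to 34.4 FPKM in SKBR3, from 40.0 to 31.3 FPKM with siRNA in HCC1954 and from 33.4 to 103 FPKM with shRNA. NDUFB10 (chromosome 16, 2009539 to 2011976 on the plus strand) went from 187 to 119, from 76.9 to 82.4 and from 64.7 to 170 FPKM in the same order. Both genes, which encode subunits of the membrane arm, thus fell in SKBR3, were not called with siRNA in HCC1954 and rose more than 1.5-fold with shRNA. NDUFS5 rose with shRNA from 67.3 to 201 FPKM but was not called in SKBR3 (160 to 133 FPKM). NDUFB9 had the highest level of the 56 genes in SKBR3 and fell there from 1305 to 937 FPKM, against 235 and 240 FPKM with shRNA, where it was not called.

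NDUFS6, a zinc-binding accessory subunit (chromosome 5, 1801521 to 1816162 on the plus strand, GRCh37), went against its complex with shRNA. It went from 112 to 71.7 FPKM in SKBR3, from 473 to 499 FPKM with siRNA in HCC1954 and from 329 to 63.7 FPKM with shRNA, a log2 ratio of -2.37. NDUFA8 (85.1 to 68.5 FPKM) and NDUFC2 (43.1 to 25.3 FPKM) fell with shRNA as well, and both also fell in SKBR3.

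Complex II, succinate dehydrogenase, links the tricarboxylic acid cycle to the chain. SDHA, its flavoprotein (chromosome 5, 218418 to 257197 on the plus strand), fell in SKBR3 (68.0 to 41.3 FPKM) and with shRNA (114 to 44.4 FPKM), and was listed at 81.7 and 71.3 FPKM with siRNA in HCC1954. SDHB, the iron-sulphur subunit that pairs with it, fell from 76.4 to 50.1 FPKM in SKBR3 and rose from 54.5 to 75.6 FPKM with shRNA, so the catalytic pair was called in opposite directions there. Of the membrane anchors, SDHD fell in SKBR3 (160 to 110 FPKM) and rose with shRNA (84.1 to 127 FPKM). The rise of SDHD rests on the choice of transcript: the one with the highest mean over the 6 groups had a log2 ratio of -0.01 with shRNA. SDHC was called in none of the 3 comparisons.

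In complex III all 6 genes tested in SKBR3 fell and the same 6 rose with shRNA. UQCRH, the hinge protein that helps cytochrome c1 meet cytochrome c (chromosome 1, 46769370 to 46782448 on the plus strand, GRCh37), went from 230 to 155 FPKM in SKBR3, from 158 to 133 FPKM with siRNA in HCC1954 and from 67.7 to 182 FPKM with shRNA. UQCRC2, a core protein (chromosome 16, 21964609 to 21994981 on the plus strand), went from 76.2 to 52.8, from 59.7 to 49.99 and from 21.8 to 54.0 FPKM. CYC1, cytochrome c1 itself, went from 148 to 109, from 93.6 to 90.0 and from 77.9 to 198 FPKM. These 3 genes had log2 ratios of 1.42, 1.31 and 1.35 with shRNA, whereas UQCRFS1, the Rieske iron-sulphur protein, rose by 0.15 (139 to 154 FPKM) and UQCRC1, the other core protein, by 0.30. UQCRB was the exception in complex III: it fell with shRNA from 18.7 to 13.7 FPKM and was not tested in SKBR3, where it was listed at 3.16 and 2.75 FPKM. UQCRHL, a near-identical copy of UQCRH, fell from 954 to 568 FPKM in SKBR3 and rose from 310 to 800 FPKM with shRNA, and the sources used here do not say how counting split reads between the copies, so the level of UQCRH is uncertain.

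Complex IV, cytochrome c oxidase, had the smallest median fall in SKBR3 among the complexes. COX8A, a small membrane subunit, fell from 620 to 323 FPKM in SKBR3 and was not called in HCC1954, at 279 and 341 FPKM with siRNA and 560 and 530 FPKM with shRNA. COX7B fell from 212 to 126 FPKM and COX5B from 259 to 162 FPKM in SKBR3, and of these COX5B rose with shRNA (136 to 169 FPKM). COX4I1, the subunit to which ATP binds as a regulator, fell from 224 to 165 FPKM in SKBR3 and rose from 322 to 409 FPKM with shRNA. COX5A and COX7C were not called in SKBR3 and rose with shRNA, COX5A from 20.5 to 37.4 FPKM and COX7C from 61.7 to 113 FPKM. COX6C was the 1 gene of complex IV that fell with shRNA (168 to 115 FPKM), and it also fell in SKBR3 (132 to 102 FPKM). NDUFA4 fell from 52.8 to 42.1 FPKM in SKBR3 and rose from 6.65 to 10.2 FPKM with shRNA.

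Complex V showed the largest median rise with shRNA. ATP5F1B, the catalytic beta subunit of the F1 head (chromosome 12, 57031959 to 57039768 on the minus strand, GRCh37), went from 681 to 361 FPKM in SKBR3, from 347 to 342 FPKM with siRNA in HCC1954 and from 253 to 561 FPKM with shRNA. ATP5F1A, the alpha subunit, went from 105 to 67.4, from 168 to 163 and from 108 to 216 FPKM. All 4 members of the F1 head (the epsilon gene, ATP5F1E, is not a member and fell with shRNA) rose there, with log2 ratios of 0.99 to 1.15, and 3 of them fell in SKBR3; ATP5F1C, the gamma subunit of the rotor, was not called there (67.4 to 61.9 FPKM). Of the 4 genes of the peripheral stalk, which holds the head still, 3 rose less with shRNA, with log2 ratios from 0.44 to 0.48. ATP5PF was not called (57.5 to 38.1 FPKM, a log2 ratio of -0.60). Its most abundant tested transcript held 32.8% of its sum, and it counts as fallen where any tested transcript is used. ATP5MC1 and ATP5MC3, which encode the same c-ring protein with different targeting peptides, fell in SKBR3 (54.3 to 31.2 and 73.0 to 40.8 FPKM) and rose with shRNA (45.1 to 63.0 and 42.3 to 67.3 FPKM). ATP5ME, membrane subunit e, was listed at 14.3 and 14.0 FPKM in SKBR3 and at 132 and 125 FPKM with siRNA in HCC1954, and rose from 12.6 to 39.5 FPKM with shRNA.

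Between SKBR3 siRNA and HCC1954 shRNA, 33 members (60% of the 55 tested in both) fell in the first and rose in the second, where 8.67% of the 8649 genes tested in both did so. No member rose in the first and fell in the second, where 622 of the 8649 genes did so. The 33 were 75% of the 44 members that fell in SKBR3, and among all genes 40.5% of the 1851 that fell in SKBR3 rose with shRNA. Complexes III and V contributed all of their fallen members to this pattern, 6 and 8 genes, complex I 11 of 18, complex II 2 of 3 and complex IV 6 of 9. NDUFS6, NDUFA8, NDUFC2, SDHA and COX6C (5 of 55 members) fell in both, a share near that of all genes (743 of 8649). With a change of at least 1.5-fold required in both, 5 members remained opposite, where 2.43% of all genes tested in both did so.

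**Figure D3:**
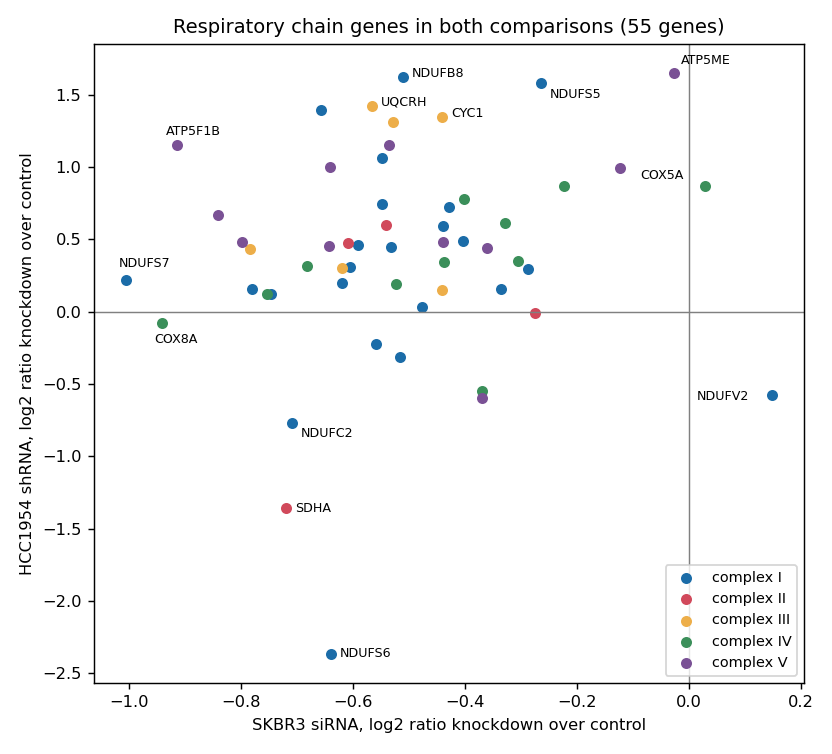
Log2 ratio in SKBR3 (horizontal axis) against that with shRNA in HCC1954 (vertical axis) for the 55 genes tested in both, 1 point per gene, coloured by complex. Most points lie in the upper left part, lower in SKBR3 and higher with shRNA, and NDUFS6 and SDHA lie far below the others.

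The difference between responses was tested gene by gene, as the log2 ratio with shRNA minus that in SKBR3 for the same transcript. It was divided by a standard error (SE) derived from the authors' deposited statistics, with Benjamini-Hochberg adjustment over all genes compared. The deposited Cuffdiff statistics and p-values do not share 1 normal scale. NDUFV2 with shRNA had a statistic of -1.30 and a p of 5e-05, and NDUFS3 in SKBR3 had -1.76 and 0.00035. The SE, z values and counts of this test thus depend on the use of the statistic. Of 55 members, 26 differed (47.3%, where 26.4% of all genes compared did), 24 with the higher ratio for shRNA and 2, NDUFS6 and SDHA, with the lower. The difference was 2.06 ± 0.23 (SE) for ATP5F1B (z = 9.17), 1.79 ± 0.24 for CYC1 (z = 7.55) and 2.05 ± 0.29 for NDUFB10 (z = 7.10). For NDUFS6 it was -1.73 ± 0.33 (z = -5.17). The 5 highest z values were those of ATP5F1B, CYC1, ATP5F1A, NDUFB10 and UQCRC2. Between SKBR3 and HCC1954 with the same siRNA, 0 of 55 members differed by this z test, where 0.494% of all genes compared did, and 4 differed at an unadjusted p under 0.05, where 4.29% of all genes did. A standard error taken from the deposited p makes 15 members differ there (12% of all genes compared), so a like response of the lines is not shown. Between siRNA and shRNA in HCC1954, 9 of 56 members differed (16.1%), a share near the 13.5% of all genes compared, 7 of them higher with shRNA (NDUFB8, NDUFB10, CYC1, UQCRC2, UQCRH, ATP5F1A and ATP5F1B) and 2 lower (NDUFS6 and SDHA). By the deposited p, 45 members differed between SKBR3 siRNA and HCC1954 shRNA (81.8%, where 60.2% of all genes did) and 32 between siRNA and shRNA in HCC1954 (57.1%, where 48.7% did). Across members the log2 ratios of SKBR3 siRNA and HCC1954 shRNA had a Spearman rho of 0.17 (55 genes within 1 pair of pooled comparisons, which are not independent replicates).

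Promoters are shown for the 4 genes with the largest changes among those that fell in SKBR3 and rose with shRNA, so that the DNA next to their start sites can be read. CYC1 and genes without an entry in the RefSeq promoter table (GRCh38.p14) were passed over. Each sequence is the 250 bases before the start, 5′ to 3′ on the gene's strand, and capitals mark every match to 6 motifs searched on both strands: NRF1 (GCGCA, any base, then GCGC), ETS or GABP (CCGGAAG), YY1 (AAGATGGCG), AP-2 (GCCNNNGGC), the GC box of SP1 (GGGCGG) and the TATA box (TATAAA).
UQCRH, chr1:46303448-46303697, plus strand: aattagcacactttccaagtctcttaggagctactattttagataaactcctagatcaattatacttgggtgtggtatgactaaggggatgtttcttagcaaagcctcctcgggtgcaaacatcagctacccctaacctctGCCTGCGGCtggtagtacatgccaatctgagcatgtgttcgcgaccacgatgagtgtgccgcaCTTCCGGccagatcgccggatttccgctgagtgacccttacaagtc
NDUFB8, chr10:100529924-100530173, minus strand: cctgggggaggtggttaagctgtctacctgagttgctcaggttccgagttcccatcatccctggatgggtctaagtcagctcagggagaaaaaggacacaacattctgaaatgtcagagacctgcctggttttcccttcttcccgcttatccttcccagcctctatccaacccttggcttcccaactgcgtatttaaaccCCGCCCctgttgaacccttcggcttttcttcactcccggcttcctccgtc
NDUFB10, chr16:1959288-1959537, plus strand: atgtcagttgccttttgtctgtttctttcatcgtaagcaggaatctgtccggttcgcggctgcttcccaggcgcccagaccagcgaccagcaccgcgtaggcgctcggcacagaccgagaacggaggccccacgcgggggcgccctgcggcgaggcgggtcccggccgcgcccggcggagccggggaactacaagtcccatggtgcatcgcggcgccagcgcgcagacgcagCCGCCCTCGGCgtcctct
UQCRC2, chr16:21953111-21953360, plus strand: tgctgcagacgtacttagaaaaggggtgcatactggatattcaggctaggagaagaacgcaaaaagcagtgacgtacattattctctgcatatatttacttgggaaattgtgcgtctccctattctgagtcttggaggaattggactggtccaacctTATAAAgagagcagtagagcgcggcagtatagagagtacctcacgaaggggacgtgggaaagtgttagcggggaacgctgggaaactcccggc

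The UQCRH promoter held an AP-2 match 109 to 101 bases and an ETS match 46 to 40 bases before the start. NDUFB8 held a GC box 50 to 45 bases before its start, NDUFB10 an AP-2 match (16 to 8) that overlaps a GC box (18 to 13), and UQCRC2 a TATA box (93 to 88). The 4 promoters thus had no motif in common. In the whole window of 250 bases before to 50 after the start, 45 of the 56 members had a promoter in the table. The AP-2 motif was in 11 of them (24.4%) against 23.0% of all 27305 promoters and 28.3% of 15843 promoters of coding genes. The ETS motif was in 17 (37.8%, against 10.7% and 14.2%), NRF1 in 9 (20%, against 6.28% and 8.58%) and YY1 in 7 (15.6%, against 1.85% and 2.74%). GC boxes were in 29 (64.4%, against 44.6% and 58.5%) and a TATA box in 5 (11.1%, against 11.95% and 9.63%). A match is a description of letters and no sign of binding, and the comparison with coding genes was chosen after seeing the data.

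The control groups were not alike in the order of these genes. NDUFB9 was the highest member in SKBR3 control cells (1305 FPKM), NDUFS6 in HCC1954 siRNA controls (473 FPKM) and COX8A in HCC1954 shRNA controls (560 FPKM). The median member was at 86.4, 82.2 and 59.0 FPKM in the same order, on scales that were normalised separately. Of the 56 genes, 42 were listed higher in the siRNA than in the shRNA controls of HCC1954, 16 of them at least 2-fold, and 2 were at least 2-fold lower. The share over all genes is not given here. ATP5ME (132 and 12.6 FPKM, mostly a non-coding transcript), ATP5F1C (156 and 22.02 FPKM) and COX7C (365 and 61.7 FPKM) were the furthest apart. The order of levels correlated across members with a Spearman rho of 0.66 between these controls, although both were HCC1954 by their labels. SKBR3 control cells correlated at 0.63 with the siRNA control of HCC1954, at 0.82 with the shRNA control and at 0.85 with the shRNA knockdown group. The shRNA groups correlated with each other at 0.82, whereas each siRNA group correlated with its control at 0.98 (SKBR3) and 0.99 (HCC1954). These correlations are across 56 genes of pooled groups and are descriptions.

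Other genes of the pathway were taken from lists of known function. Of 24 further structural subunits, cytochrome c included, 14 fell (58.3%) and 0 rose in SKBR3, and 12 rose (50%) and 3 fell (12.5%) with shRNA. Of them 10 fell in SKBR3 and rose with shRNA, where 8.67% of all genes tested in both did so. ATP5MC2, the third gene of the c-ring protein, rose from 79.1 to 204 FPKM with shRNA, and ATP5F1E, the epsilon subunit of the F1 head, fell from 446 to 131 FPKM. Tricarboxylic acid cycle and pyruvate dehydrogenase genes, which feed the chain, fell more often than they rose in both comparisons: of 22 tested, 15 fell (68.2%) and 1 rose in SKBR3, where 20.7% of all genes fell and 12.5% rose, and 13 fell (59.1%) and 3 rose (13.6%) with shRNA, where 39.1% fell and 36.4% rose. All genes thus also fell more often than they rose. FH, fumarase, fell from 87.4 to 30.5 FPKM with shRNA, and OGDH, of the oxoglutarate dehydrogenase complex, fell from 42.9 to 25.4 FPKM in SKBR3. The only rise in SKBR3 was PDK4, a kinase that inhibits pyruvate dehydrogenase (9.29 to 18.9 FPKM). Of the 21 genes tested in both, 9 fell in both comparisons, where 743 of all 8649 genes tested in both did so.

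Assembly factors build the complexes and are not part of them. The counts of this paragraph stand beside 20.7% of all genes fallen and 12.5% risen in SKBR3, and 39.1% fallen and 36.4% risen with shRNA. For complex I, 5 of 15 tested fell in SKBR3, and 3 rose and 4 fell of 13 with shRNA. For complexes II, III and V, 0 of 14 were called in SKBR3, and 3 rose and 6 fell of 13 with shRNA. For complex IV, 3 of 21 fell in SKBR3, and 8 rose and 7 fell of 19 with shRNA, shares (42.1% and 36.8%) near those of all genes. Among them were COX15, a heme A synthesis enzyme, which rose from 10.96 to 37.9 FPKM with shRNA, and COA6, which fell from 63.7 to 30.0 FPKM. Of coenzyme Q synthesis and other quinone reductase genes, 9 of 15 fell in SKBR3, and 6 rose and 6 fell of 15 with shRNA. SQOR, the sulphide quinone oxidoreductase, fell from 60.9 to 6.67 FPKM with shRNA. Of 17 carriers and import genes, 6 fell in SKBR3, 1 rose with siRNA in HCC1954 (TOMM20, an import receptor, 71.1 to 107 FPKM), and 10 rose and 5 fell with shRNA. No gene of the other lists was called with siRNA in HCC1954. Of the 13 mitochondrially encoded subunits 0 were tested, and they are not analysed here. The HCC1569 table held 68 genes, none of them a member.

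**Figure D4:**
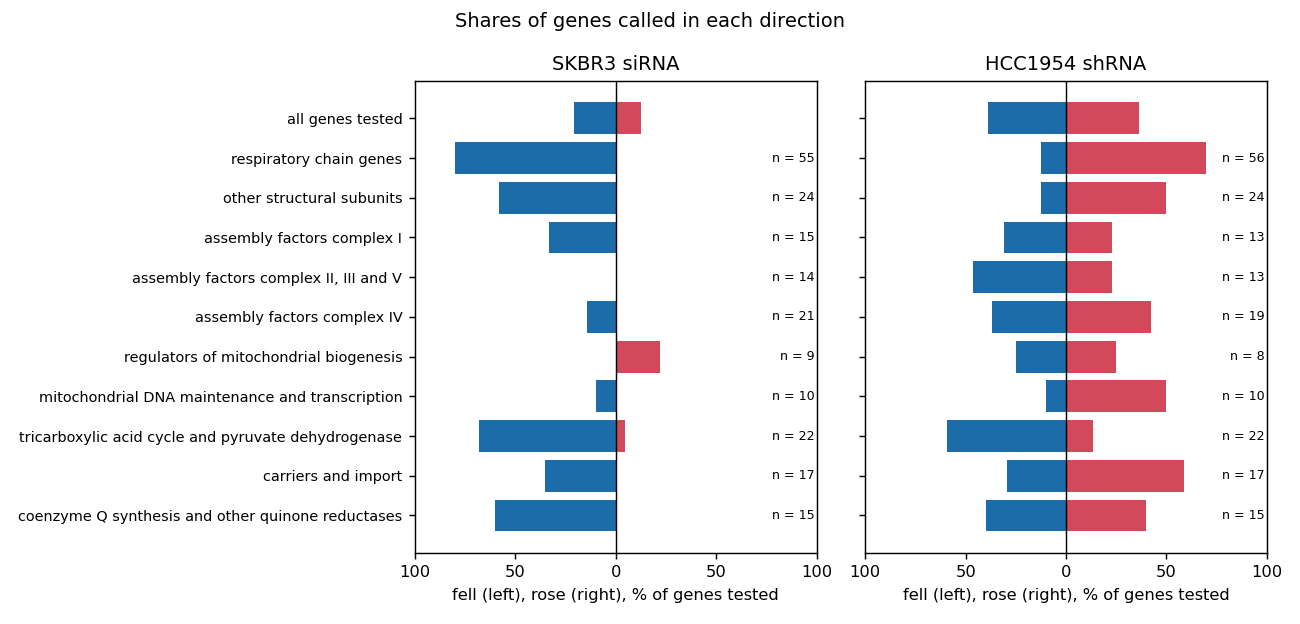
Share of tested genes that fell (bars to the left) and rose (bars to the right), in percent, for all genes tested, the respiratory chain genes and 9 lists of other mitochondrial genes, in SKBR3 siRNA and HCC1954 shRNA; n is the number tested. The respiratory chain genes had 80% fallen in SKBR3 and 69.6% risen with shRNA, and the tricarboxylic acid cycle list had more falls than rises in both.

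Each member was also set beside the tested genes within 1 Mb of it, a comparison chosen after seeing the data. With shRNA the log2 ratio of a member and the median of its neighbours had a Spearman rho of 0.64 over 53 members with at least 3 neighbours, against 0.48 in SKBR3 (50 members) and 0.21 with siRNA in HCC1954 (53 members); neighbours can be shared between members. Of the 7 members that fell with shRNA, all had a neighbour median below 0. Of the 36 that rose and had enough neighbours, 24 had one above 0. The 10 uncalled members with enough neighbours had 8 such medians below 0 and 2 above. NDUFS6 and SDHA both lie at the end of the short arm of chromosome 5, where 13 of 15 tested neighbours fell with shRNA and 1 rose. Their median log2 ratio was -2.09, leaving out 1 gene listed at 0 in knockdown cells. TRIP13, named as an example after its values were seen, fell there from 560 to 31.3 FPKM. With siRNA in HCC1954, 0 of 15 genes tested there fell and 1 rose. In SKBR3, 6 of 10 tested there fell and 0 rose, with a median log2 ratio of -0.39, where 20.7% of all genes tested fell. NDUFB8 is a rising example, since 17 of its 19 neighbours rose and their median was 1.32. ATP5MC3 is a counterexample, as it rose while the median of its 3 neighbours was -1.13. The part of chromosomal position in the shRNA results was not tested.

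**Figure D5:**
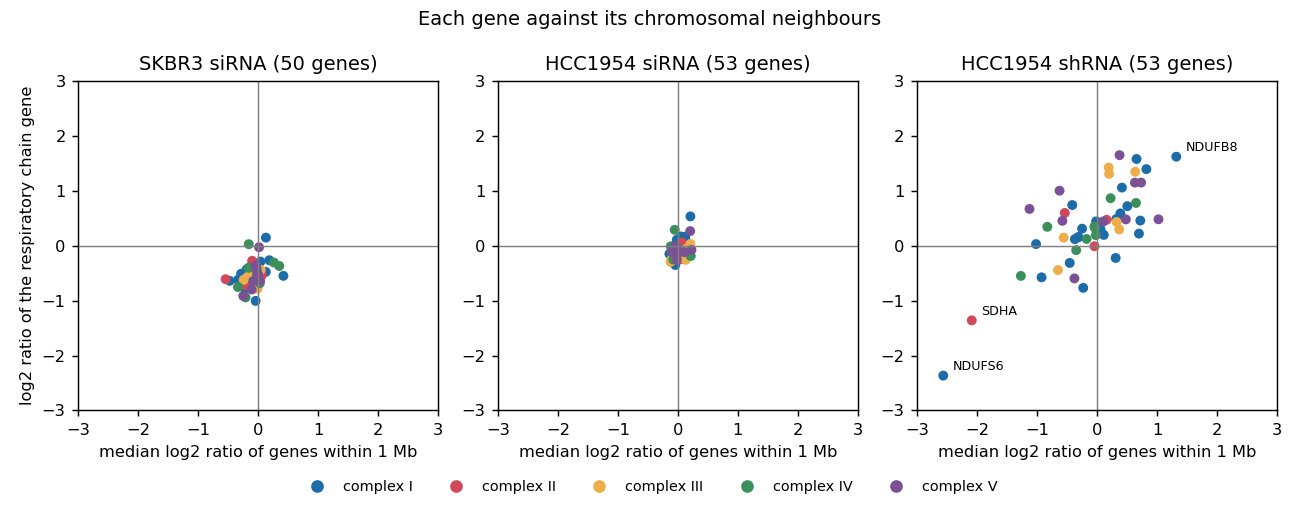
Log2 ratio of each respiratory chain gene (vertical axis) against the median log2 ratio of the other tested genes within 1 Mb (horizontal axis), 1 point per gene with at least 3 such neighbours, in the 3 comparisons on the same axes. With shRNA the points spread along a rising band that ends at NDUFS6 (-2.37) and SDHA (-1.36), while both siRNA panels stay close to the centre.

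Member transcripts are short, and 44 of the 56 had a median length under 1000 nt in the GRCh37 annotation. Genes outside the set with such short transcripts and at least 10 FPKM in both groups fell in 27.0% of cases in SKBR3. With shRNA 41.2% of them rose and 33.8% fell. Longer genes outside the set at that level fell in 23.1% in SKBR3, and 33.8% rose and 42.3% fell with shRNA. No FPKM minimum was applied to the members. Members under 1000 nt fell in 79.1% in SKBR3, and 68.2% rose and 13.6% fell with shRNA. The 12 longer members fell in 83.3% in SKBR3, and 75% rose and 8.33% fell with shRNA. There were 13 members that share exon bases with another coding gene, among them NDUFB8 (with HIF1AN), NDUFB9 and ATP5ME. The sources used here do not say whether counting used strand, so reads of such genes may be mixed.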

How the data were processed

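Messenger RNA libraries (TruSeq RNA kit, per the labels' protocols) of 24 samples in 8 groups of 3 were used through 4 comparison tables. Per the submitters' processing notes, the tools were Bowtie 0.12.2 and Cuffdiff, and the genome builds are written as hg19 and GRCh37. The FPKM values, 1 per transcript and group with samples pooled, were computed by the authors, per the file headers. Each entry's p-value, q-value and test statistic (a score) were taken as deposited. Low values allow no depth to be stated, and the counting error of single values is unknown.

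RefSeq accessions (66321, of which 65468 matched and 853 did not) were mapped to symbols with an NCBI RefSeq table (GRCh38.p14, for names and promoters), where NDUFA4 is listed under a newer symbol. FPKM was summed per symbol without a pseudocount or filter. The call is a deposited q under 0.05 for the tested transcript with the highest FPKM of both groups. It held at least 80% of the summed FPKM in 46 members in SKBR3 and in 44 in each HCC1954 comparison. Differences between comparisons were tested with a two-sided z test on 1 transcript per gene. The standard error was the log2 ratio over the deposited statistic, with Benjamini-Hochberg adjustment over all genes compared. The test was also run on simulated normal ratios drawn with such standard errors, and that run cannot show whether these errors are right. One table's columns name no line, which the deposited file's name gives as HCC1954. Gene positions are GENCODE on GRCh37, where all 56 members overlapped the locus in the tables. Named genes are all members, TFAP2C, cell type markers, and up to 4 called genes per list and comparison with the largest change and at least 1 FPKM in both groups; any other is marked as chosen after seeing its values. The members and lists were chosen with earlier results of these data known. Alternatives covered the transcript, q threshold (0.01), a fold minimum of 1.5, FPKM minimums of 1 and 10, a pseudocount of 1, centring, the adjustment, the standard error and the complex of NDUFA4. Python 3.11.15, numpy 2.4.6, pandas 2.3.3 and scipy 1.17.1 were used.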

Additional observations from a re-analysis of the deposited data

Results flagged for a closer look

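The responses of 26 of 55 members differed between SKBR3 siRNA and HCC1954 shRNA by the z test of the difference itself (adjusted p under 0.05), where 26.4% of all genes compared did, and each value is the log2 ratio with shRNA minus that in SKBR3. In complex I the differences were NDUFS5 1.78, NDUFS6 -1.73, NDUFA1 1.29, NDUFA6 0.82, NDUFA13 1.05, NDUFB3 1.15, NDUFB7 0.89, NDUFB8 2.17 and NDUFB10 2.05. In complex II the differences were SDHA -0.76 and SDHB 1.08. In complex III the differences were CYC1 1.79, UQCRC1 0.92, UQCRC2 1.84, UQCRFS1 0.59, UQCRQ 1.22 and UQCRH 2.18. In complex IV the differences were COX4I1 0.76, COX5B 1.00, COX6A1 1.18, COX7C 1.09 and COX8A 0.86. In complex V the differences were ATP5F1A 1.64, ATP5F1B 2.06, ATP5PB 0.80 and ATP5PO 1.10. These are positive except for NDUFS6 and SDHA, whose falls were larger with shRNA. In COX8A, which was not called with shRNA, and in NDUFS5 and COX7C, which were not called in SKBR3, the direction in 1 of the comparisons is not established.

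Between siRNA and shRNA in HCC1954, 9 of 56 members differed by the same test (16.1%, near the 13.5% of all genes compared), and each value is the log2 ratio with shRNA minus that with siRNA. The differences were NDUFS6 -2.44, NDUFB8 2.22, NDUFB10 1.30 and SDHA -1.26 for genes of complexes I and II, and CYC1 1.40, UQCRC2 1.57, UQCRH 2.11, ATP5F1A 1.04 and ATP5F1B 1.17 for genes of complexes III and V. None of the 9 was called with siRNA alone. All 9 also differed between SKBR3 and HCC1954 shRNA, and both comparisons use the shRNA groups. NDUFB8 shares exon bases with HIF1AN and UQCRH is nearly identical to UQCRHL.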

How the results depend on the processing

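Requiring a 1.5-fold change as well as q under 0.05 left 22 members fallen in SKBR3 (10.3% of all genes tested), 22 risen and 4 fallen with shRNA (25.8% and 28.8% of all genes tested), and 5 opposite between these comparisons. Adjusting over 1 transcript per symbol gave 1 member risen with siRNA in HCC1954, NDUFS7. With the called transcript alone in place of summed FPKM, the median log2 ratio of complex I was 0.034 with siRNA in HCC1954, where the sum gave -0.10, and 0.40 with shRNA, and that of complex V with shRNA was 0.82. With a standard error computed from the p-values, 45 members differed between SKBR3 siRNA and HCC1954 shRNA, 15 between SKBR3 and HCC1954 siRNA and 32 between HCC1954 siRNA and shRNA, where 60.2%, 12% and 48.7% of all genes compared did. With the transcript that was highest over the 6 groups, SDHD had a log2 ratio of -0.015 with shRNA, and NDUFA10 and ATP5F1C lost their shRNA call. NDUFA10 also lost its SKBR3 call. With that transcript 31 members were opposite between SKBR3 siRNA and HCC1954 shRNA, where 8.68% of all genes tested in both were. Over all values of single genes and alternatives, 1276 kept their direction and call, 55 lost and 4 gained a call, and 1 reversed its direction (SDHD with shRNA). The cause of these shifts was not tested. The other 140 values of the main comparisons stayed within 1.5 times the count or 0.1 of the median. No paired analysis was possible because the files hold 1 pooled value per group, and for the same reason leaving out each replicate was not run. Depth and replicate spread are unknown, so a missing call in HCC1954 siRNA does not show an absent change.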

Other observations

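Genes that regulate or maintain mitochondria showed no common direction in SKBR3. Of 9 tested regulators of mitochondrial biogenesis, 2 rose there: GABPA, the DNA-binding subunit of GABP, from 10.7 to 13.5 FPKM, and PRKAA1, a catalytic subunit of the AMP-activated kinase, from 41.2 to 66.4 FPKM. With shRNA PPRC1, a coactivator of the PGC family, rose from 12.3 to 40.9 FPKM, PRKAA1 fell from 69.3 to 21.8 FPKM, SIRT3 rose from 5.20 to 8.11 FPKM and YY1 fell from 61.0 to 56.3 FPKM. The list had 2 rises and 2 falls of 8 tested with shRNA (25% each), where 36.4% of all genes tested rose and 39.1% fell. In SKBR3 its 2 rises were 22.2%, where 12.5% of all genes tested rose.

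Of 10 genes that maintain and transcribe mitochondrial DNA, 1 fell in SKBR3, where 20.7% of all genes tested fell. With shRNA 5 rose and 1 fell, with a median log2 ratio of 0.26, where 36.4% of all genes tested rose and 39.1% fell. TWNK, the mitochondrial helicase, rose from 8.43 to 41.6 FPKM with shRNA and POLRMT, the mitochondrial RNA polymerase, from 4.70 to 17.8 FPKM. TFB1M, which methylates mitochondrial ribosomal RNA, fell in SKBR3 (5.12 to 2.94 FPKM) and rose with shRNA (2.88 to 8.41 FPKM). It was the 1 gene of these 10 with this pair of directions, a share near the 8.67% of all genes tested in both. Among chaperones of the matrix, HSPD1 rose from 134 to 461 FPKM and HSPE1 from 42.9 to 135 FPKM with shRNA. Both were in the list of carriers and import, where 10 rose and 5 fell of 17, VDAC3 from 182 to 73.9 FPKM.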
